A study of Mus musculus with 4 samples.

Results

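The genes described here encode the transferases that attach glucuronic acid, sulfate or glutathione to small molecules, together with the carboxylesterases. They were taken by name, as the rows of the array whose annotation gives a single gene symbol that begins with Ugt1a, Ugt2, Ugt3, Sult, Gsta, Gstm, Gstp, Gstt, Gsto, Gstk, or Ces and a digit, with the row of highest mean kept for each gene. The rule found 60 of the 19934 genes tested, namely 10 Ugt genes, 16 Sult genes, 18 Gst genes and 16 Ces genes. No Ugt1a gene is among them, because the 1 Ugt1a row of the array carries 8 symbols. RNA of whole kidney was compared between mice without Usp2 (Usp2-KO) and wild-type (WT) littermates. Usp2 encodes a protease that takes ubiquitin off other proteins. All mice were C57BL6/N males aged 12 weeks, dissected at Zeitgeber Time 12, the end of the light phase, after 3 weeks of housing with 12 h of light and 12 h of darkness a day. Each genotype is represented by 2 arrays, and each array measured a pool of equal RNA amounts from 3 mice. The 6 littermate pairs were kept together, so that each Usp2-KO pool has a WT pool of the littermates. The sources do not say that pools of equal number are these partners. This is assumed wherever a littermate difference or the littermate block is given.

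Conjugation makes small molecules more soluble in water, so that kidney and liver can excrete them. UDP-glucuronosyltransferases (Ugt genes) use UDP-glucuronic acid or another UDP-sugar as the donor, sulfotransferases (Sult genes) use the activated sulfate PAPS, and glutathione transferases (Gst genes) use glutathione. Carboxylesterases (Ces genes) split ester and amide bonds of drugs and lipids and often act before conjugation. In kidney these enzymes are best known from the proximal tubule. Many of the genes lie in tandem clusters of near-identical copies, whose array probes can be shared, so that the assignment of a signal to 1 copy is uncertain for each cluster named here.

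All values are log2 expression values, and a difference is Usp2-KO minus WT on that scale. Usp2 stood at 11.63 and 11.71 in the WT pools and at 7.65 and 7.60 in the Usp2-KO pools, a difference of -4.04 (SE 0.07, limma adjusted p = 2.8e-08), which matches the labels. The medians of the arrays lay between 7.44 and 7.46. All 15 proximal tubule markers examined had means between 11.94 and 14.05 and differed by between -0.04 and 0.05 with a median of 0.02. Of 9 markers of distal tubule and collecting duct 7 were higher (median 0.19), with 5 at an unadjusted p under 0.05 by limma across all genes (9.11% of all genes were). Trpv5 had the largest difference, 0.55. The other 2, Slc12a3 and Slc4a1, were lower, at -0.06 (groups without overlap) and -0.01. The part of these segments in the values below was not tested. In a whole tissue, fewer cells of a type and less RNA per cell cannot be told apart. Pooling averages over mice, so that p-values here measure the spread between pools and not that between animals. An exact permutation test of 2 pools against 2 cannot go below p = 0.333.

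Of the 60 genes, 0 passed an adjusted p of 0.05 by limma, in a comparison in which 0.00502% of all genes (Usp2 itself) did. At an unadjusted p under 0.05 there were 7 of the 60 (11.7%), against 9.11% of all genes. Ugt2a3, Sult1d1 and Ces1e were higher in Usp2-KO kidney, while Ces1g, Ces1c, Sult3a2 and Sult2a6 were lower. These shares are 5.0% higher and 6.67% lower, against 5.22% and 3.88% of all genes. The median difference of the 60 genes was -0.03, against -0.01 over all genes, with 23 higher and 37 lower (26 and 34 after repeated quantile normalization). Of the 30 genes with a mean above the median of all genes, 17 were higher and 13 lower, with a median difference of 0.034. Lower values were thus more frequent among the members of low signal. The median over all genes also rose with this cut, from -0.006 to 0.014, so the shift is not particular to the 60. The WT and Usp2-KO pools did not overlap for 26 genes (43.3%, against 38.9% of all genes), of which 8 were higher and 18 lower (13.3% and 30.0%, against 19.8% and 19.1% of all genes). In 36 genes (60.0%, against 67.7% of all genes) the difference was smaller than 0.1. For 27 of the 60 the sign changed when 1 of the 4 pools was left out. The plot of all 60 genes shows that most values of the littermate pools lie close to 0 on both sides.

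**Figure D1:**
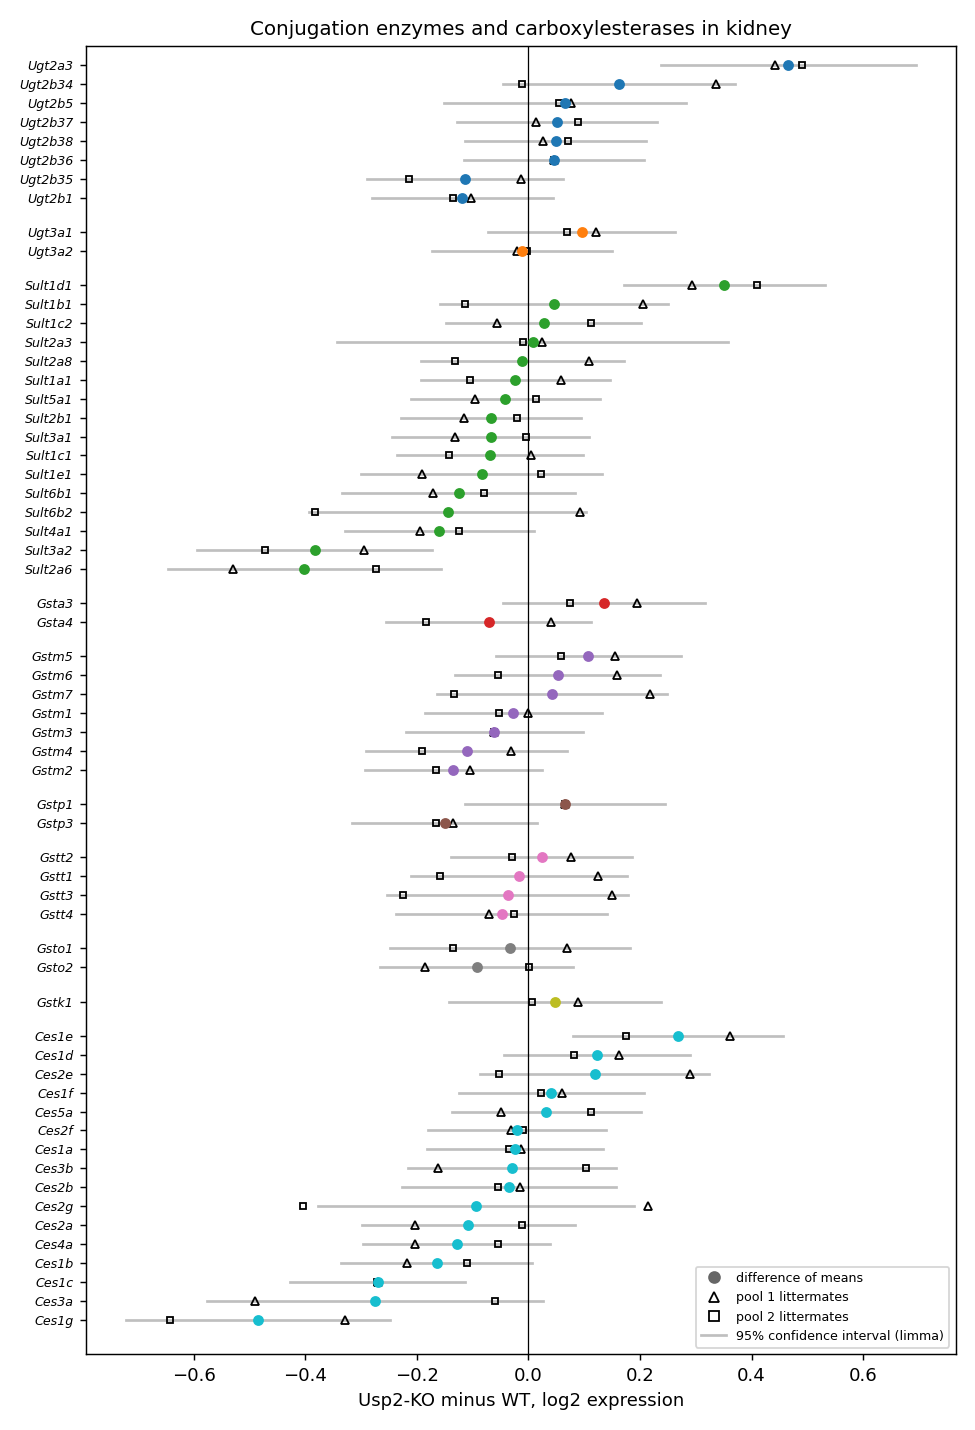
Difference in log2 expression between Usp2-KO and WT kidney for each of the 60 genes, grouped by family. Filled circles are differences of means of 2 pools, triangles and squares are the littermate pools 1 and 2, and grey lines are 95% confidence intervals from limma; Ugt2a3 (0.47) lies farthest to the right and Ces1g (-0.49) farthest to the left.

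With pools of equal number taken as littermates, a limma fit with the pool number as a block called 5 of the 60 genes at an adjusted p of 0.05, against 0.768% of all genes. Sult1d1 and Ugt2a3 were called as higher (0.512% of all genes) and Ces1g, Sult2a6 and Sult3a2 as lower (0.256% of all genes). That fit has a prior of 90.6 degrees of freedom, so that it uses nearly the same spread for every gene. With the pool numbers crossed, 0 of the 60 passed. Deviations from the genotype means correlated across genes at -0.12 between pools of equal number. With 2 pools per genotype, crossed numbers give the negative of this value (0.12) by construction. The correlation does not back pools of equal number as partners. The 5 calls rest on that assumption and on the nearly common spread, and they are the 5 largest absolute differences of the 60. Ces1c, with littermate differences of -0.27 and -0.27, had a limma adjusted p of 0.183 with the block.

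Among the Ugt genes, 7 of 10 were higher in Usp2-KO kidney, with a median difference of 0.05. Without WT pool 2, 5 of 10 were higher, with a median of -0.0035. Ugt2a3, an enzyme that glucuronidates bile acids, had log2 values of 5.48 and 5.67 in the WT pools and of 5.92 and 6.16 in the Usp2-KO pools. Both Usp2-KO pools lay above both WT pools, and the littermate differences were 0.44 and 0.49. The difference of means was 0.47 (SE 0.10, 95% confidence interval 0.24 to 0.69), or 1.38-fold, with a limma adjusted p of 0.286, and of 0.00199 with the littermate block. The mean signal of Ugt2a3, 5.81, was below the lower quartile of every array (5.97 to 6.04). The deposited table holds no detection calls.

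The other Ugt2 genes, which encode liver and kidney enzymes for steroids, bile acids and drugs, lay closer together. Ugt2b34 was at 8.63 and 8.85 in WT and at 8.97 and 8.84 in Usp2-KO pools. These groups overlapped, the difference of 0.16 came from the pool 1 littermates (0.34 against -0.01), and without WT pool 1 it was 0.05. Ugt2b38, the Ugt2 gene of highest mean, was at 12.50 and 12.43 in WT and at 12.53 and 12.50 in Usp2-KO pools, a difference of 0.05. Ugt2b5, Ugt2b36 and Ugt2b37 differed by 0.07, 0.05 and 0.05, and Ugt2b1 and Ugt2b35 by -0.12 and -0.11. Without WT pool 2, Ugt2b5 and Ugt2b37 were at -0.03 and -0.02. The 95% intervals of these 7 genes included 0. Ugt3a1, which transfers N-acetylglucosamine, differed by 0.10 (12.54 and 12.50 in WT, 12.67 and 12.57 in Usp2-KO pools). Ugt3a2 differed by -0.01 (13.11 and 13.05 in WT, 13.08 and 13.05 in Usp2-KO pools).

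Among the Sult genes, 4 of 16 were higher and 12 lower, with a median of -0.07, and 13 of the 16 had a mean below the array medians. Sult1d1, which sulfates dopamine and other catecholamines and is known for its expression in mouse kidney, was the Sult gene of highest mean. It had values of 10.95 and 10.99 in the WT pools and of 11.24 and 11.40 in the Usp2-KO pools. The groups did not overlap, and the difference was 0.35 (SE 0.08, 95% confidence interval 0.17 to 0.53), or 1.28-fold, with littermate differences of 0.29 and 0.41. Its limma adjusted p was 0.286, and 0.0415 with the littermate block. When single pools were left out, the difference ranged from 0.27 to 0.43.

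The Sult genes of lowest value relative to WT had low signals. Sult2a6, of the hydroxysteroid sulfotransferases, was at 3.99 and 3.65 in WT and at 3.46 and 3.38 in Usp2-KO pools. The groups do not overlap, but the WT pools lay far apart (SD 0.24, n = 2). The difference was -0.40 (SE 0.11, limma adjusted p = 0.334, and 0.014 with the littermate block), and it was -0.23 without WT pool 1. Sult3a2, of the amine sulfotransferases, was at 3.46 and 3.71 in WT and at 3.16 and 3.23 in Usp2-KO pools. Its difference was -0.38 (SE 0.09, limma adjusted p = 0.306, and 0.0195 with the block), and it was -0.26 without WT pool 2. Both rows lie near the bottom of the array's range, which began at 2.37, so that transcript and background cannot be told apart there.

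Sult4a1, a sulfotransferase known from brain, differed by -0.16 (6.53 and 6.57 in WT, 6.34 and 6.45 in Usp2-KO pools; limma adjusted p = 0.569). Sult1c2, which lay well above the array medians, differed by 0.03, and the phenol sulfotransferase Sult1a1 by -0.02. Sult6b2 differed by 0.09 in the pool 1 and by -0.38 in the pool 2 littermates. The remaining Sult genes (Sult1b1, Sult1c1, Sult1e1, Sult2a3, Sult2a8, Sult2b1, Sult3a1, Sult5a1 and Sult6b1) differed by between -0.12 and 0.05.

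Ugt2a3 and Sult1d1 lie in 1 cluster on chromosome 5, in which 8 Ugt2 and 3 Sult1 genes follow each other among the measured genes. Between them lie Ugt2b38 and Sult1b1, with differences of 0.05 and 0.05, and beyond Sult1d1 lies Sult1e1, the estrogen sulfotransferase, with -0.08. The 250 bases before the start of both genes are printed because they are the 2 genes of the cluster that were higher at an unadjusted p under 0.05. They are RefSeq sequences of the GRCm38.p6 build, minus strand, written 5′ to 3′, with matches to GTTAAT (the core of the site of HNF1, a transcription factor of the proximal tubule) in capitals.
Ugt2a3, chr5:87337196-87337445: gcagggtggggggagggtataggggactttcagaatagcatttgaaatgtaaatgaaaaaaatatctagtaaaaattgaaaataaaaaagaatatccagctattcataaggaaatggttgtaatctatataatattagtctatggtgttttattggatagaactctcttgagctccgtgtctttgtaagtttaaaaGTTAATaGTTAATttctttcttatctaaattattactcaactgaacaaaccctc
Sult1d1, chr5:87569007-87569256: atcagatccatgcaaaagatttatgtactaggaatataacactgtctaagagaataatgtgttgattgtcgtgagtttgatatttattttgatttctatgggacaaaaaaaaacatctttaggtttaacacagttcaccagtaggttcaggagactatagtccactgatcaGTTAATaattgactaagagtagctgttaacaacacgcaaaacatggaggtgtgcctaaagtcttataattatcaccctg
Ugt2a3 has a pair of matches, at bases 54 to 49 and 47 to 42 before the start, and Sult1d1 has 1, at bases 79 to 74. RefSeq windows were given for 52 of the 60 genes, 63 windows in all. Of the 63, 10 held GTTAAT or its reverse complement ATTAAC, against 6.43% of all 32851 windows of this length. Many of the genes are tandem copies and some have several windows, so the 63 do not count as independent. Sult2a6 and Sult3a2, which were lower, are among the genes with a match, as are Gsta3, Ugt3a1, Sult1a1, Sult2a3, Ces3b and Ces5a. The letters were thus present in windows of genes with differences of either sign.

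**Figure D2:**
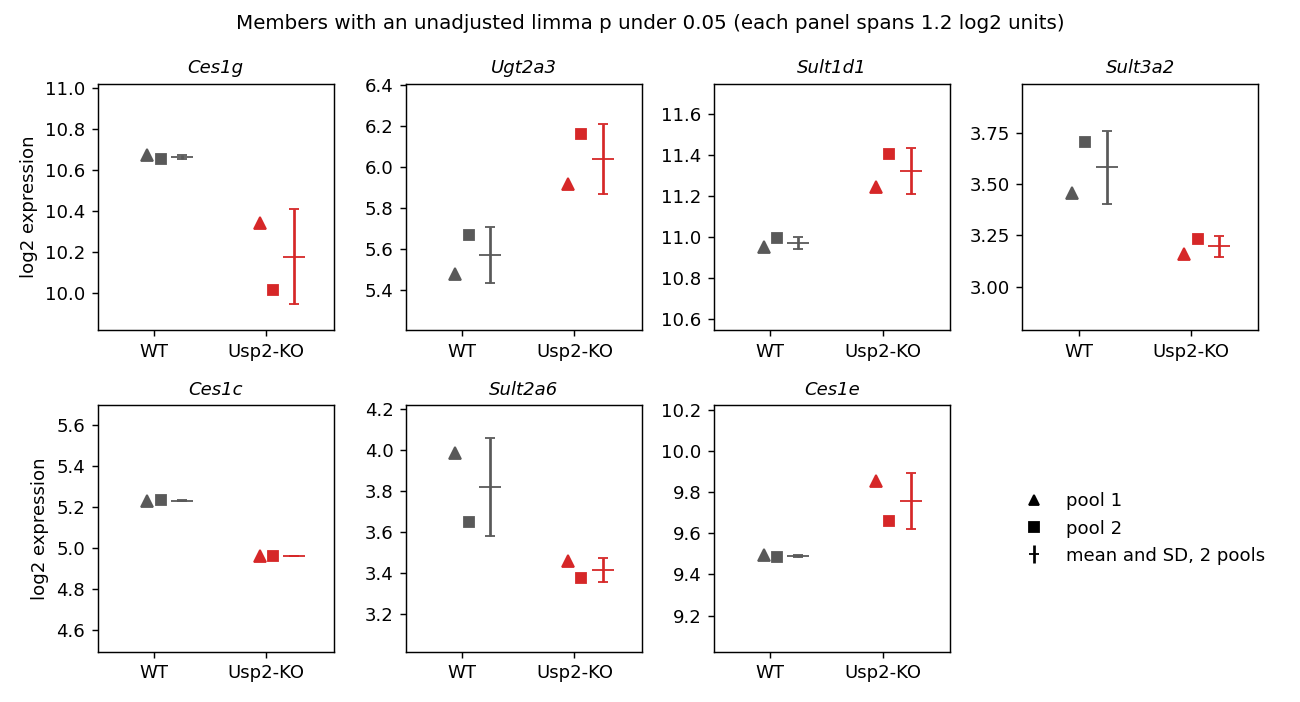
Log2 expression in each pool (triangle, pool 1; square, pool 2) with the mean and SD of 2 pools per genotype, for the 7 genes at an unadjusted limma p under 0.05; every panel spans the same number of log2 units. The genotypes do not overlap in any panel, which the choice of genes by p from these same values favours. The pools of Ces1c lie almost on each other (5.23 and 5.23 in WT, 4.96 and 4.96 in Usp2-KO).

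The 18 Gst genes had differences between -0.15 and 0.14, a median of -0.03 and 0 genes at an unadjusted p under 0.05 by limma (9.11% of all genes were). They were 7 higher and 11 lower, but 11 higher and 7 lower without WT pool 2 (median 0.03). Of the alpha class, Gsta3 was at 10.12 and 10.28 in WT and at 10.32 and 10.36 in Usp2-KO pools, a difference of 0.14 (95% confidence interval -0.05 to 0.32), which was 0.05 without WT pool 1. Gsta4, which clears the lipid aldehyde 4-hydroxynonenal, differed by -0.07. Of the mu class, 7 Gstm genes are neighbours on chromosome 3. Gstm5, Gstm7 and Gstm6, in this order, differed by 0.11, 0.04 and 0.05, and the next genes Gstm3, Gstm2, Gstm1 and Gstm4 by -0.06, -0.13, -0.03 and -0.11. The groups of Gstm7 and Gstm6 overlapped, and without Usp2-KO pool 1 both were below 0, at -0.04 and -0.03. Gstm1, the mu class gene of highest mean, was at 12.63 and 12.63 in WT and at 12.63 and 12.58 in Usp2-KO pools. Gstm2 was at 10.53 and 10.55 in WT and at 10.43 and 10.38 in Usp2-KO pools, so that the groups did not overlap (SE 0.07, limma adjusted p = 0.612). Gstm5 did not overlap either, at 10.73 and 10.73 in WT and at 10.89 and 10.79 in Usp2-KO pools. A second row of Gstm3, of lower signal, differed by -0.21 (limma over all rows, unadjusted p = 0.0466, adjusted p = 0.576) against -0.06 for the row used.

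The remaining classes showed as little. Gstp1, the pi class enzyme, was at 12.07 and 11.95 in WT and at 12.13 and 12.02 in Usp2-KO pools, a difference of 0.07 within overlapping groups. Its neighbour Gstp3 differed by -0.15 (6.72 and 6.66 in WT, 6.58 and 6.50 in Usp2-KO pools; limma adjusted p = 0.583). The theta class genes Gstt1, Gstt2, Gstt3 and Gstt4 differed by -0.02, 0.02, -0.04 and -0.05, and the value of Gstt2 was below 0 after repeated quantile normalization. Gsto1, an omega class enzyme that reduces dehydroascorbate, differed by -0.03 and Gsto2 by -0.09. Gstk1, of mitochondria and peroxisomes, differed by 0.05. All of these groups except those of Gstp3 overlapped.

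The carboxylesterases held differences in both directions, most of them in the Ces1 cluster on chromosome 8. Of 16 Ces genes, 5 were higher and 11 lower (8 and 8 after repeated quantile normalization, which turned the small values of Ces1a, Ces2f and Ces3b), with a median of -0.03, and without WT pool 1 the counts were also 8 and 8. The groups did not overlap for 2 higher and 7 lower genes (12.5% and 43.8%, against 19.8% and 19.1% of all genes). Ces1g, a carboxylesterase known from liver lipid metabolism, was at 10.67 and 10.66 in the WT pools and at 10.34 and 10.01 in the Usp2-KO pools. Both Usp2-KO pools were below WT, with littermate differences of -0.33 and -0.64. The difference of means was -0.49 (SE 0.10, 95% confidence interval -0.72 to -0.25), which is 1.40-fold lower in Usp2-KO kidney, with a limma adjusted p of 0.286, and of 0.00138 with the littermate block. Leaving out Usp2-KO pool 2 gave -0.32, and leaving out Usp2-KO pool 1 gave -0.65.

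Ces1e, known as egasyn, which holds beta-glucuronidase in the endoplasmic reticulum, went the other way. It was at 9.49 and 9.49 in the WT pools and at 9.85 and 9.66 in the Usp2-KO pools, a difference of 0.27 (SE 0.08, limma adjusted p = 0.393). It was 0.17 without Usp2-KO pool 1. Gusb, the gene of beta-glucuronidase, was at 9.13 and 8.91 in WT and at 9.29 and 9.24 in Usp2-KO pools, a difference of 0.25 (limma adjusted p = 0.446). In both genes the Usp2-KO pools lay above the WT pools.

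Ces1c, which encodes an esterase of mouse plasma, was at 5.23 and 5.23 in WT and at 4.96 and 4.96 in Usp2-KO pools, a difference of -0.27 (SE 0.07, limma adjusted p = 0.326). The pools of each genotype lay almost on each other, but the signal is low. Ces1b differed by -0.16 (6.85 and 6.72 in WT, 6.63 and 6.61 in Usp2-KO pools; limma adjusted p = 0.565). Ces1f, the Ces gene of highest mean, was at 13.12 and 13.07 in WT and at 13.18 and 13.09 in Usp2-KO pools, a difference of 0.04 within overlapping groups. Ces1d, the triacylglycerol hydrolase of liver and fat, differed by 0.12 (12.16 and 12.14 in WT, 12.32 and 12.22 in Usp2-KO pools), and Ces1a by -0.02. In chromosomal order, Ces1a, Ces1b and Ces1c had values below 0 (Ces1a above 0 after repeated quantile normalization), Ces1d, Ces1e and Ces1f had values above 0, and Ces1g, the last, had the lowest.

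**Figure D3:**
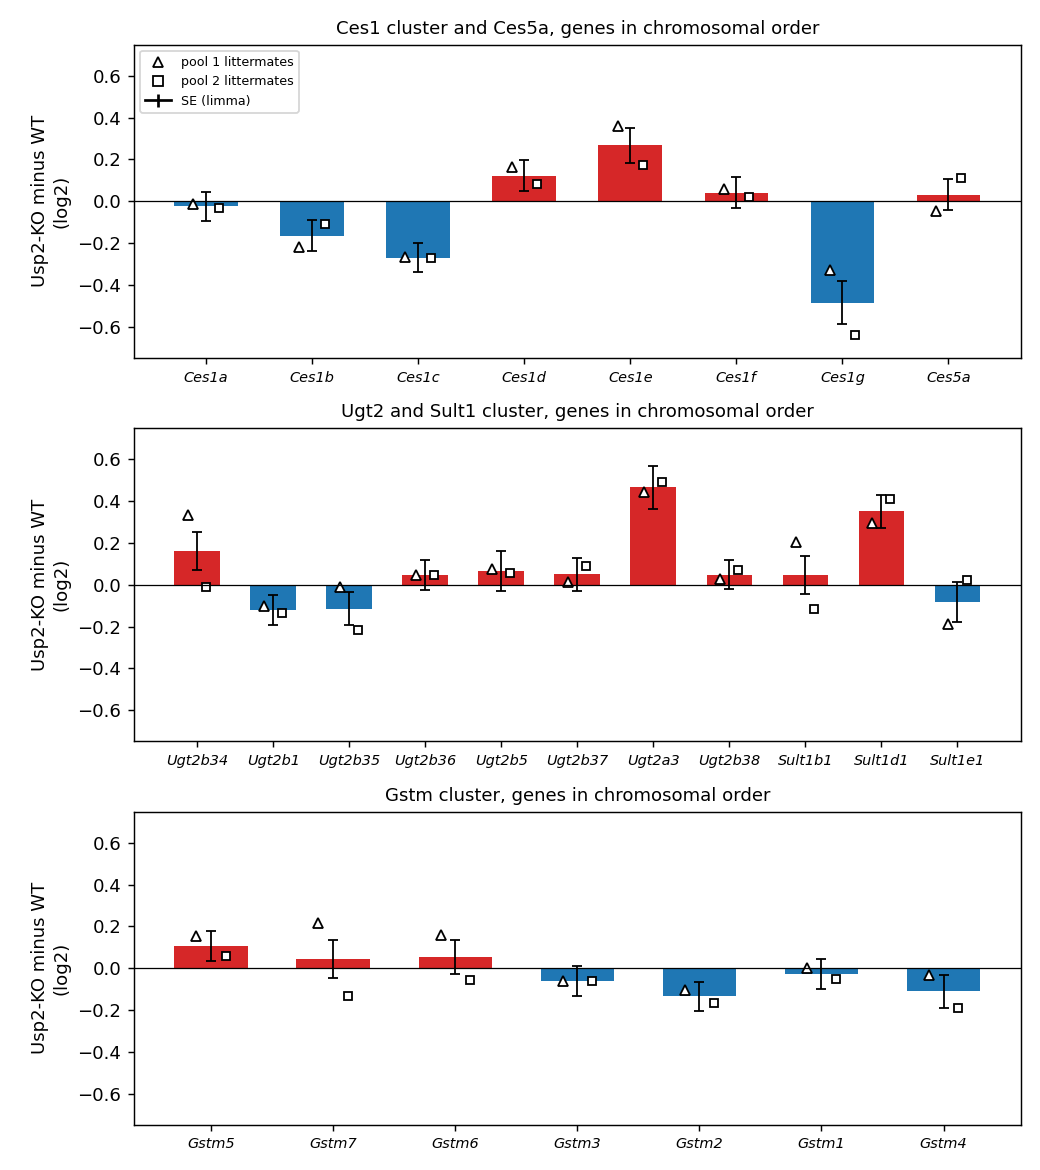
Difference in log2 expression (bars, with the limma SE; triangles and squares, pool 1 and pool 2 littermates) for neighbouring genes in their order on the chromosome, in the Ces1, Ugt2 and Sult1, and Gstm clusters. Ces1g (-0.49) stands between Ces1f (0.04) and Ces5a (0.03), and Ces1e (0.27) lies on the other side of Ces1f. Ugt2a3 (0.47) and Sult1d1 (0.35) stand apart from neighbours between -0.12 and 0.16.

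Ces1c, Ces1e and Ces1g of the Ces1 cluster were the Ces genes at an unadjusted limma p under 0.05 and differed in opposite directions. The bases before their start are therefore printed. Capitals mark TTATGTAA (the D-box, bound by clock-controlled bZIP factors) and, in Ces1g, TTTATA (the reverse complement of the TATA box letters TATAAA).
Ces1c, chr8:93131284-93131533: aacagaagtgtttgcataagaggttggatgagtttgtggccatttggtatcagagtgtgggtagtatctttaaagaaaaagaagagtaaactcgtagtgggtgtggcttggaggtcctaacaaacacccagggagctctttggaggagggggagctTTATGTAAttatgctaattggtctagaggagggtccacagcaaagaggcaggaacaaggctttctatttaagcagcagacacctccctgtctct
Ces1e, chr8:93229620-93229869: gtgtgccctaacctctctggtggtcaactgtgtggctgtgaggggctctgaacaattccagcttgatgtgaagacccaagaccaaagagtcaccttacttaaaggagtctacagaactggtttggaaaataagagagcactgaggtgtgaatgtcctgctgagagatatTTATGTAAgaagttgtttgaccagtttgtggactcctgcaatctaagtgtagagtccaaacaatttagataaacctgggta
Ces1g, chr8:93337210-93337459: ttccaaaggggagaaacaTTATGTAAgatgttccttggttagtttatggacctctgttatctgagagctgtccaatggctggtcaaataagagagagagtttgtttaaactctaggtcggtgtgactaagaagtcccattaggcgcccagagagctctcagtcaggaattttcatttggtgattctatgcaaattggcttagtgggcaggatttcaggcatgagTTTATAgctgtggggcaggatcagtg
The windows are 250 bases of the GRCm38.p6 build from RefSeq, minus strand. TTATGTAA lies at bases 94 to 87 before the start in Ces1c, 81 to 74 in Ces1e and 232 to 225 in Ces1g. Windows with TTATGTAA or its reverse complement TTACATAA numbered 6 of the 63, in Ces1a, Ces1b, Ces1c, Ces1e, Ces1g and Ugt2b1, against 0.819% of all windows. The 5 Ces1 genes among them are tandem copies and do not count as independent. They include differences from -0.49 to 0.27, so the letters were shared by genes that differed in opposite directions. Both strands were also searched for the nuclear receptor core AGGTCA (11 of 63 windows, 14.0% of all). The antioxidant response element core TGACNNNGC was in 3 of 63 windows (10.2% of all), the STAT and BCL6 core TTCNNNGAA in 3 (7.02%), the HNF4 core CAAAGTCCA in 0 (0.384%), the E-box CACGTG in 0 (6.02%) and the TATA box in 11 (12.4%).

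The Ces2 to Ces5 genes, in a second cluster on the same chromosome apart from Ces5a, gave 2 higher and 7 lower values. At an unadjusted p under 0.05 by limma there were 0 of them (9.11% of all genes were). Ces3a, an esterase of liver, was at 7.15 and 6.68 in WT and at 6.66 and 6.62 in Usp2-KO pools. WT pool 1 stood above the other 3 pools, which lay within 0.06 of each other. The difference was -0.28 (limma adjusted p = 0.579), and it was -0.04 without WT pool 1. Alb, the hepatocyte gene of serum albumin, had 9.37 in WT pool 1 and 8.56, 8.59 and 8.40 in WT pool 2 and Usp2-KO pools 1 and 2. Of 8 hepatocyte markers 4 were lower and 4 higher, and 5 of the 8 were highest in WT pool 1. Alb, Ahsg and Fgb stood there above every other pool by 0.78, 0.34 and 0.18, and Tat and Ttr by 0.03 and 0.01. For Serpina1d, Apoa2 and Cyp2e1, WT pool 1 minus the highest other pool was -0.395, -0.13 and -0.079. Serpina1d was higher in Usp2-KO kidney by 0.30 without overlap of the groups (limma adjusted p = 0.393). The linear values of the 8 summed to between 19134 and 19821 in WT and between 19487 and 20151 in Usp2-KO pools, mostly from Cyp2e1, which kidney also expresses. The part of other tissue in the value of Ces3a was not tested.

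**Figure D4:**
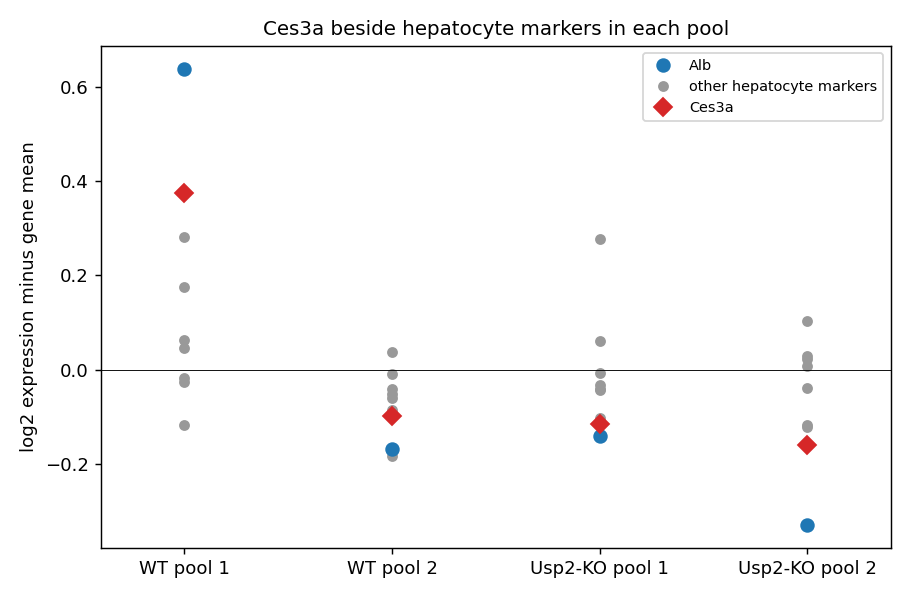
Log2 expression minus the gene's own mean in each of the 4 pools for Ces3a (red diamonds), Alb (blue) and the other 7 hepatocyte markers (grey). Ces3a and Alb are both highest in WT pool 1, and Ces3a lies within 0.06 in the other 3 pools.

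Fat is another source of carboxylesterase transcripts. Of 11 adipocyte markers 8 were lower (median difference -0.19). The other 3, Ucp1, Fabp4 and Car3, differed by 0.21, 0.12 and 0.01. Adipoq, which had the lowest difference of the 11 (-0.47), was at 6.28 in Usp2-KO pool 1 against 7.10, 7.08 and 6.95 in the other pools. The linear values of the 11 markers summed to 2863 and 2803 in WT and to 2422 and 2836 in Usp2-KO pools. Car3 had the highest mean among them (9.96). The part of fat in the values of the Ces genes was not tested. Of the other genes of the cluster, Ces2e differed by 0.12, Ces2a by -0.11, Ces4a by -0.13, Ces2g by -0.09, and Ces2b, Ces2f and Ces3b by between -0.04 and -0.02. Ces5a has 2 rows, which differed by 0.03 and -0.11.

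In the plot of both littermate comparisons, the 60 genes lie among all genes, with a few at the edge. In 14 genes both littermate pools were higher in Usp2-KO kidney (23.3%, against 26.1% of all genes). In 24 both were lower (40.0%, against 25.3%), and in 22 they went in opposite directions (36.7%, against 47.8%). Of the genes with a difference of at least 0.2, which were 8 of 60 (13.3%) against 7.71% of all genes, each had the same sign in both pairs. The difference is the mean of both littermate differences, so this agreement follows largely from the cut.

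**Figure D5:**
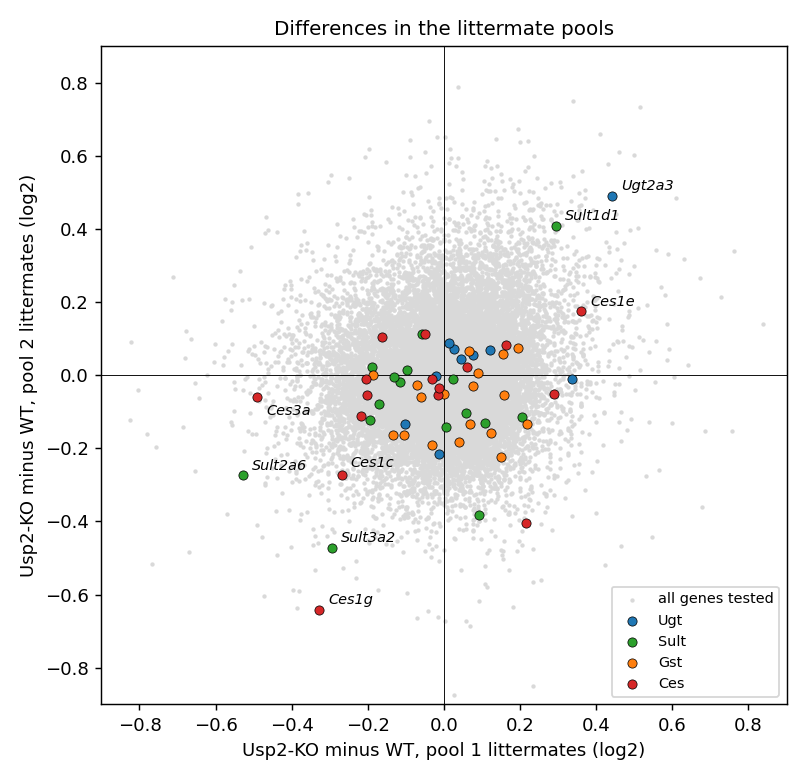
Usp2-KO minus WT in the pool 1 littermates (x axis) against the pool 2 littermates (y axis), log2 scale, for all genes (grey) and the Ugt, Sult, Gst and Ces genes (coloured); genes with a difference of at least 0.2 are named. Ugt2a3 (0.44, 0.49) and Ces1g (-0.33, -0.64) lie farthest out along the diagonal among the 60 genes, and Ces3a (-0.49, -0.06) lies away from it.

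Rows with several symbols were left out of the 60 genes, and 12 such rows carry at least 1 symbol of these families. The Ugt1a row was at 10.01 and 9.96 in WT and at 10.19 and 10.16 in Usp2-KO pools, a difference of 0.19 (SE 0.07, limma adjusted p = 0.531 over all 28270 rows). Both Usp2-KO pools lay above WT by more than the spread between pools. The Ugt1a genes share most of their exons, so the row cannot be given to 1 of them. A pair of Gstp rows differed by 0.17 and 0.17 (limma unadjusted p = 0.0445 and 0.0409, adjusted p = 0.574 and 0.564), and the groups did not overlap. In 4 Gsta rows the values were 0.11, 0.12, 0.07 and 0.08, in 2 Ugt3 rows 0.09 and 0.11, in 1 Ugt2 row -0.03, and in 2 Sult rows 0.17 and -0.19.

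Lists of genes around the supply of the donors were examined beside the transferases. A list for UDP-glucuronic acid supply and glucuronide removal held Gusb, Ugp2, Ugdh, Slc35d1, Ugcg, Uxs1 and Slc35b1. Of these, Ugcg (0.10), Uxs1 (0.06) and Slc35b1 (0.03) neither make UDP-glucuronic acid nor remove glucuronides. All 7 listed genes were higher in Usp2-KO kidney, with a median of 0.10 against -0.01 over all genes, of which 47.5% were higher. None passed an adjusted p of 0.05 by limma, and 1 of 7, Gusb, had an unadjusted p under 0.05 (9.11% of all genes did). Ugp2, which makes UDP-glucose, was at 9.26 and 9.22 in WT and at 9.34 and 9.50 in Usp2-KO pools, a difference of 0.18 (limma adjusted p = 0.554). A list of sulfate donor synthesis, sulfate transport and sulfate removal was also counted. Of its 11 genes 9 were higher (median 0.08), with 0 at an unadjusted p under 0.05. Sumf1, the sulfatase modifying factor, differed by 0.14 and the PAPS transporter Slc35b3 by 0.13.

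The glutathione genes differed less. Of 16 genes of glutathione synthesis, recycling and mercapturate formation 7 were higher and 9 lower (median -0.01; 8 and 8 after centring on array medians), and 0 passed over all genes by limma. Ggct, which breaks gamma-glutamyl dipeptides, differed by 0.18 (unadjusted p = 0.03 by limma across all genes, adjusted p = 0.491), and Gclm, a subunit of the rate-limiting enzyme of glutathione synthesis, by 0.10. Of 11 other glutathione transferases and peroxidases 3 were higher and 8 lower (median -0.04), with the microsomal transferase Mgst1 at 0.13, the prostaglandin synthase Ptges at 0.11, and Mgst2 and the zeta class enzyme Gstz1 at -0.09 and -0.07. Of 16 other hydrolases 7 were higher and 9 lower (median -0.01; 8 and 8 after repeated quantile normalization or centring). In that list Pon1, the paraoxonase, differed by -0.28 (5.22 and 5.52 in WT, 5.10 and 5.08 in Usp2-KO pools; limma adjusted p = 0.458), and Bphl by 0.12.

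Of 17 genes of acetyl, methyl and amino acid conjugation 13 were higher (median 0.07), with 4 at an unadjusted p under 0.05 (9.11% of all genes were), 2 in each direction. Nat2, an arylamine N-acetyltransferase, was at 6.95 and 7.20 in WT and at 7.30 and 7.63 in Usp2-KO pools. The groups did not overlap, and the difference was 0.39 (SE 0.12, limma adjusted p = 0.394, and 0.0175 with the littermate block). Nnmt, the nicotinamide methyltransferase, differed by -0.18.

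Of 17 regulators of conjugation genes, 12 were higher and 5 lower (10 and 7 after repeated quantile normalization), with a median of 0.02. Nr1h4, the bile acid receptor FXR, was at 9.89 and 9.86 in WT and at 10.23 and 10.23 in Usp2-KO pools. Its difference of 0.36 (SE 0.07) was larger than the spread between pools, with a limma adjusted p of 0.286, and of 0.035 with the littermate block. The adaptor Keap1 differed by 0.09. Of 20 targets of xenobiotic receptors and NRF2 outside these families, 13 were higher and 7 lower (median 0.04). At an unadjusted p under 0.05 by limma across all genes there were 3 of the 20 (9.11% of all genes were). Cyp2b10 was among them with 0.25 and 0.93 in the littermate pools, as was Aox1, an aldehyde oxidase, with a difference of -0.18. Cyp3a11, a target of the xenobiotic receptor PXR, differed by -0.38 with overlapping groups (limma adjusted p = 0.551, and 0.02 with the littermate block). Its mean of 3.78 lies near the bottom of the array's range, which began at 2.37, so that transcript and background cannot be told apart there. Nqo1, a classic NRF2 target, differed by 0.17 (9.60 and 9.65 in WT, 9.83 and 9.76 in Usp2-KO pools; limma adjusted p = 0.532).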

How the data were processed

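The authors deposited log2 expression values of 4 Affymetrix whole-transcript arrays, made with RMA, as the submitters' processing notes name it. This method corrects background, equalises the distributions of the arrays and summarises probe sets. Its software and version, and any removal of rows, are not given in the sources used here. The amount labelled was 300 ng of total RNA for each pool, per the labels.

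Of 28270 rows, 21780 carried 1 symbol, 1617 several and 4873 were unnamed. The row of highest mean was kept per symbol (19934 genes, 996 with several rows). All 60 members matched the GRCm38.p6 gene table, which was used for names and gene order, and 0 symbols changed. No file names a build for the array, so no array coordinates are given. Levels of different rows are not on 1 scale.

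Usp2-KO was compared with WT in limma 3.58.1 (R 4.3.3; lmFit and eBayes, genotype as the term), with Benjamini-Hochberg adjustment over all genes and a threshold of 0.05. The fit had 8.87 degrees of freedom, 6.87 of them prior. It was tested on simulated data. Rows with several symbols were fitted with all rows. The replicate block used the pool number, since the series' design text keeps littermates paired, without naming which pools are partners. As a check of the pairing, pools of the same number were compared in how they deviate from the mean of their genotype. This gave a correlation of -0.12 across genes. With 2 pools per genotype, crossed numbers give its negative (0.12) by construction. The value does not back pools of equal number as partners. Crossed numbers were therefore added after the data were seen. The other alternatives were a trend or robust prior, filters on level (mean of at least 6, or above the median), the mean of all rows, repeated quantile normalization, median centring, a threshold of 0.10, and leaving out single pools.

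Genes and lists were chosen with earlier results of these data known. Named genes were the gene of highest mean and the genes of lowest p in each family, the 12 of lowest p over all members, Ces1g, and up to 2 per pathway list. Others (Ces1d, Ces1a, Gsta4, the smaller Sult, Ugt2, Gst and Ces genes, Mgst2, Gstz1, Aox1 and Cyp3a11) were named after their values were seen. So were Alb, Adipoq, Trpv5 and the other cell type markers given by name. The motifs were also chosen then. No protein sequences were used here, so the planned comparison of proteins was not made. Figures were drawn with matplotlib 3.10.9.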

Additional observations from a re-analysis of the deposited data

How the results depend on the processing

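With the replicate block, 153 of all genes and 5 of the 60 members passed, against 1 and 0 without it, and the 5 (Ces1g -0.49, Ugt2a3 0.47, Sult1d1 0.35, Sult2a6 -0.40, Sult3a2 -0.38) were called under no other alternative run. With crossed numbers 1 gene and 0 members passed. Over all genes 18 passed with an intensity trend, 7 with a mean of at least 6, 7 above the median level, 2 at an adjusted p under 0.10, and 1 to 2 without single pools. In none of these was a member called. Members at an unadjusted p under 0.05 and lower were 4, but 1 above the median level, where 30 members were tested, and from 4 to 7 without single pools. The Gstp median was 0.0655 above the median level, where Gstp1 alone was left. Without single pools, the Gstt median ranged from -0.0835 to 0.0655 and the Gstm median from -0.051 to -0.003, and 27 of the 60 values changed sign. Among the genes named by the rule the ranges were -0.0395 to 0.1345 for Gstk1, -0.127 to 0.031 for Gstt4, -0.039 to 0.015 for Ugt3a2, -0.1655 to 0.0995 for Gsto1, -0.1125 to 0.0785 for Gstt1 and -0.0025 to 0.0845 for Ces1f. Of the others, Ces2g ranged from -0.2535 to 0.0645, Sult6b2 from -0.307 to 0.017, Sult2a3 from -0.207 to 0.222, and Gstt3 from -0.157 to 0.082, and the main values of the 27 lay between -0.145 and 0.0655. The cause was not tested. The count of higher genes among the 60 was 23, and 18 to 29 without single pools. Left with 1 pool, a group is assumed to vary like the other. The number of arrays limits every value.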

Other observations

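Some members varied between pools in a way that crossed the genotypes. Gstt1 was at 11.28 and 11.47 in WT pools 1 and 2 and at 11.40 and 11.31 in Usp2-KO pools 1 and 2, and Gstt3 at 10.23, 10.47, 10.38 and 10.25 in the same order. In both genes WT pool 2 and Usp2-KO pool 1 were the higher pools, and the littermate differences were 0.12 and -0.16 for Gstt1 and 0.15 and -0.22 for Gstt3. Ces2g, an esterase of the second Ces cluster, followed the same order with 8.11, 8.42, 8.32 and 8.02, and its littermate differences of 0.22 and -0.40 were the farthest apart among the 60 genes. Gstm7 was at 9.01, 9.18, 9.22 and 9.05. These genes were chosen after their values were seen.

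Sult2a3 split by pool number instead, with 3.70 and 4.13 in WT and 3.72 and 4.12 in Usp2-KO pools 1 and 2. Its genotype difference was 0.01, while both pools numbered 2 lay above both pools numbered 1. The signal is low.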
